A study of Rattus norvegicus with 18 samples.

Results

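The genes described here are 10 of the IL-33, IL-1 and IL-17 signalling families: the ligands Il33 and Il18, the antagonist Il1rn, the IL-1 family receptors Il1rl1, Il1r1 and Il1rap, and the IL-17 receptors Il17ra, Il17rc, Il17rd and Il17re. Of all genes, 12198 had a probe on either array design. Every probe whose only platform symbol is one of these names was taken. The genes were chosen on values of these same arrays, by a rule that names no comparison and no threshold. The changes from time zero and between the media are therefore given as a description, with the fit's calls and no p-value of a single gene. Counts of genes at an unadjusted p under 0.05 are given only beside a count of 0 calls. The other gene lists used below were also chosen with earlier results of these data known. Their adjusted p-values describe these arrays and give no independent support. A probe was on the larger design for 8 of the 10 genes (15 probes) and on the smaller one for 5 (9 probes), and Il17rc and Il17rd matched no probe on either. On the larger design 7 genes passed the level filter, which left out Il18.

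IL-33, IL-1 and IL-18 are cytokines of the IL-1 family. IL-33 is a nuclear protein of endothelial, epithelial and stromal cells that is released on cell damage. It binds ST2, the product of Il1rl1, which then recruits the shared accessory chain encoded by Il1rap. The same accessory chain serves the IL-1 receptor Il1r1, which the antagonist Il1rn occupies without signalling. IL-17 receptors are pairs of chains in which Il17ra is shared, and Il17re is the partner that binds IL-17C, a cytokine of epithelia. In the heart, ST2 is known from stretched cardiomyocytes, and its soluble form is measured in blood as a marker of cardiac strain.

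The cells were ventricular cardiomyocytes of neonatal rats (day 1, 24 ventricles), purified on Percoll gradients and plated at 250000 cells per 100 mm dish. After 24 h in cardiac medium, 6 dishes were extracted as untreated time zero controls. The other 12 were diluted to 50% with hESC medium, either unconditioned or conditioned by stem cells, with FBS at 5% and HS at 10%, and 3 dishes of each medium were extracted at 24 h and 3 at 48 h. The labels name no genetic change in the cells, and how the medium was conditioned is not given in the sources used here. No labelled control kept the undiluted cardiac medium for 24 h or 48 h. Time in culture and dilution with hESC medium therefore cannot be told apart in a comparison with time zero. The larger array design held 12 arrays (time zero replicates 3 to 6, replicates 2 and 3 of each other group), and the smaller one held 6 (time zero replicates 1 and 2, replicate 1 of each other group). Replicates are not said to come from separate cell preparations, so the errors cover the spread among these arrays only and may be technical.

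Replicates 4 and 5 of time zero, with replicate 2 of unconditioned medium at 48 h, stood apart from the other 9 arrays on the first principal component (35.1% of the variance). Their ratio of upper to lower quartile was 22.4 to 25.7, against 38.7 to 47.8 on the others. All 10 measured cardiomyocyte markers were above the level filter, and their summed intensity was 141223 to 285071 at time zero and 174100 to 289491 in the other groups. Intensities below are scaled to the median of each design's arrays. Each log2 change, ± SE, has the median of all probes' changes subtracted (0.18 at 24 h and 0.08 at 48 h against time zero), while its call tests the change before subtraction. A gene is called where limma's p, adjusted by Benjamini-Hochberg across 23694 probes, is under 0.05, and is represented by its probe of highest mean. One probe's level is not set against that of another.

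The upstream sequence is shown for 3 of the 4 genes called against time zero with both media together. It is shown because each of these 3 genes was called higher at 48 h, while Il1rl1 was not called at 24 h. Each stretch holds the 250 bases before an annotated start site in the rat build GRCr8, from RefSeq, 5′ to 3′ on the gene's strand. RefSeq lists 2 start sites for Il33, at chr1:237115323-237115572 and chr1:237134696-237134945 (both on the plus strand). The Il1rl1 stretch is chr9:50203388-50203637 (plus strand), and the first of 2 overlapping Il1rap stretches is chr11:87704343-87704592 (minus strand). No entry was matched for Il17re. Capitals mark matches to 4 motifs searched on both strands: TATAAA (the TATA box), TGANTCA (AP-1), TTCNNNGAA (STAT) and the NF-kB consensus.
Il33 start site 1: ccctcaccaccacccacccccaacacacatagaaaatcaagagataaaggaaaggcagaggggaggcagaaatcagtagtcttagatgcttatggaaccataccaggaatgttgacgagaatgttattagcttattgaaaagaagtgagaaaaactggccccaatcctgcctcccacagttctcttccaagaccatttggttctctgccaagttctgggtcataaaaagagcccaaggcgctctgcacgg
Il33 start site 2: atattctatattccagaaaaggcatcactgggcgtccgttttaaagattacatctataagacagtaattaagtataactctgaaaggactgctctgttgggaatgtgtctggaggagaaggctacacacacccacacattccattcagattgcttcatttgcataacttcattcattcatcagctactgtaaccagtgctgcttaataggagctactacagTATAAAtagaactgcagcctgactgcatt
Il1rl1: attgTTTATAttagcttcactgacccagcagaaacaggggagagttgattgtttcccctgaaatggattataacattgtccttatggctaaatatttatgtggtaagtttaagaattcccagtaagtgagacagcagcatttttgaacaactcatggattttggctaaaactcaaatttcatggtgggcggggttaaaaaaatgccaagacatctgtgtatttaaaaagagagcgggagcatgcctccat
Il1rap start site 1: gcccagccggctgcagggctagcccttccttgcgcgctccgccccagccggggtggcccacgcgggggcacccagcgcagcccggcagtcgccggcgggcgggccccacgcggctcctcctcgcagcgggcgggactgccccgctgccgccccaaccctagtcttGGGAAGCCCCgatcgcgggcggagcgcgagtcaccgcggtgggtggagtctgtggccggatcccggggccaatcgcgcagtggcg
The second Il33 start site has a TATA box 29 bases upstream, and the first has no match. The Il1rl1 match is the TATA motif on the opposite strand, 246 bases upstream. Il1rap has an NF-kB match 85 bases upstream, also on the opposite strand. Of 33469 stretches of this length, 12.9% held the TATA motif, 6.34% AP-1, 7.67% STAT and 4.24% NF-kB, so each match is a description of the letters only. Which Il33 start site the array probes report was not analysed here.

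Against time zero, with both media together, 3 of the 7 genes above the filter were called higher at 24 h (Il33, Il17re and Il1rap). At 48 h 4 were called higher, when Il1rl1 was added, and none was called lower at either time. Over all 9953 genes 3.78% were called higher at 24 h and 7.14% at 48 h (4.14% and 8.33% in either direction). The median change of the 7 genes was 0.56 at 24 h and 1.17 at 48 h, against 0.07 and 0.08 over all genes. Taken by medium, Il17re was called in each medium at both times. At 24 h Il33 and Il1rap were called in conditioned and not in unconditioned medium. Il33 changed there by 2.92 ± 0.78 and 2.70 ± 0.78, and Il1rap by 1.76 ± 0.42 and 1.27 ± 0.42. At 48 h Il33 was called in both media, Il1rap and Il17ra in conditioned medium and Il1rl1 in unconditioned medium. A call in 1 medium alone is no difference between the media, and none of the 7 genes was called between them. Shares of all genes called within 1 medium are not given here. These counts and calls describe genes chosen on these arrays and give no support of their own.

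**Figure D1:**
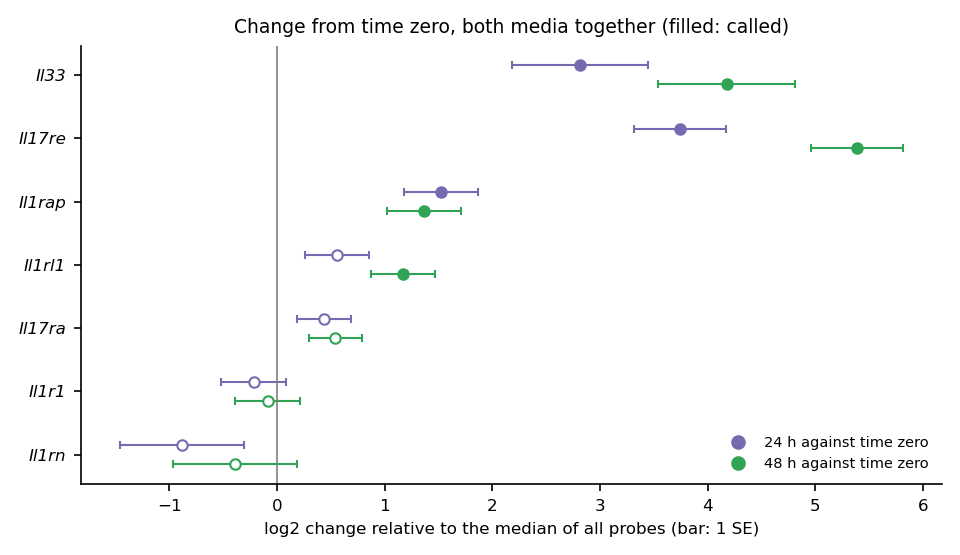
Log2 change from time zero of the 7 genes above the level filter, at 24 h and 48 h with both media together, relative to the median of all probes (horizontal axis, larger design). Points are fitted changes, bars 1 SE and filled points called changes. Il17re and Il33 lie farthest right, at 5.38 and 4.17 at 48 h, while Il1r1 and Il1rn lie left of 0 at both times.

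Il33, the alarmin ligand, was read by probe 66107. At time zero its intensity was 18.6, 124 and 42.7 on replicates 3 to 5 and below the floor of 4.78 on replicate 6. It was 164 and 227 in unconditioned medium and 228 and 221 in conditioned medium at 24 h. After 48 h it was 482 and 540 in unconditioned and 439 and 543 in conditioned medium. Every array of the media lay above every time zero array, every 48 h array lay above every 24 h array, and the 2 media overlapped at both times. Il33 rose by 2.81 ± 0.63 at 24 h and by 4.17 ± 0.63 at 48 h on the log2 scale, and both changes were called. The difference between 48 h and 24 h was 1.35 ± 0.63 and was not called (limma, adjusted p = 0.988).

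The Il33 probe 19722 of the smaller design showed the same order on 6 other arrays. It read 41.5 and 6.34 at time zero, the second below that table's floor of 14.7. It read 232 in unconditioned medium and 204 in conditioned medium at 24 h, and 501 and 362 at 48 h. The differences from time zero were 3.26 at 24 h and 4.20 at 48 h on the log2 scale, with 1 array per medium and time and no test. The second Il33 probe of the larger design, 299011, ran from 38.4 to 69.3 at time zero and from 56.1 to 136 in the media. Its changes were 0.43 ± 0.36 at 24 h and 0.98 ± 0.36 at 48 h, neither of them called. The 2 Il33 probes had a Pearson's r of 0.56 over the 12 arrays.

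The size of the Il33 change depended on the time zero arrays. Without time zero replicate 6 it was 1.91 at 24 h and 3.29 at 48 h, without replicate 4 it was 3.66 and 5.00, and 4.51 and 5.80 without the 3 arrays that stood apart. Under a pseudocount of 0.5 of the median it was 1.49 and 2.66, and with both probes averaged 1.55 and 2.52. The 48 h call held under every alternative run, whereas the 24 h call was lost with scaling to the 75th percentile, no level filter, no intensity trend, and without time zero replicate 3 or unconditioned 24 h replicate 3.

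Among markers of other cell types, the endothelial sum followed the order of the Il33 groups. The summed intensity of 7 endothelial markers was 1046 to 1577 at time zero, 1698 to 2174 at 24 h over both media, and 2334 to 3807 at 48 h. At 48 h 6 of these 7 markers were called higher, as were 7.14% of all 9953 genes. Among the 6 were Tek (2.79 ± 0.28, limma, adjusted p = 7.39e-06) and Vwf (2.40 ± 0.34, limma, adjusted p = 0.000159). Kdr fell by 1.89 ± 0.29 (limma, adjusted p = 0.000628). The summed intensity of 9 fibroblast markers was 2468 to 4381 at time zero, 4349 to 6047 at 24 h and 5579 to 11047 at 48 h, ranges that overlap in turn, with Pdgfra, Dcn, Lum and Tcf21 below the level filter. That of 7 smooth muscle and pericyte markers was 17844 to 31727 at time zero, 34085 to 55644 at 24 h and 32768 to 48625 at 48 h, with Rgs5 below the filter. It lay above time zero on all arrays of the media, and its 24 h and 48 h ranges overlapped, unlike those of Il33. The part of these cell types in the Il33 values was not tested. In these bulk samples a change in the number of cells of a type and a change in RNA per cell cannot be told apart.

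**Figure D2:**
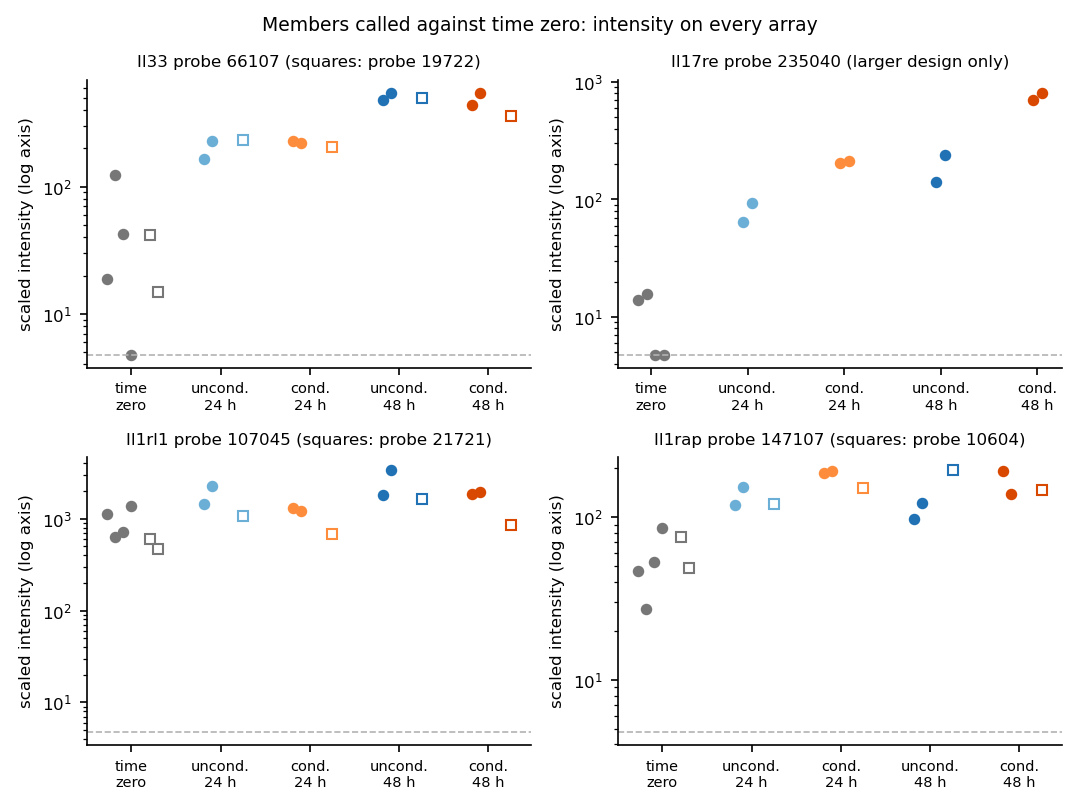
Scaled intensity (vertical log axis) of the 4 genes called against time zero with both media together, by group (horizontal axis). Circles are arrays of the larger design and open squares arrays of the smaller one, with values below the floor drawn at it (4.78 for circles, the dashed line, and 14.7 for squares). Il33 and Il17re lie higher on all arrays of the media than at time zero, and Il17re lies highest in conditioned medium at 48 h, at 695 and 804.

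Il1rl1, the IL-33 receptor ST2, had 3 probes on the larger design. Probe 107045 read 1133, 626, 711 and 1361 at time zero, 1458 and 2284 in unconditioned medium and 1304 and 1214 in conditioned medium at 24 h. After 48 h it read 1822 and 3352 in unconditioned and 1861 and 1932 in conditioned medium. All 48 h arrays lay above all time zero arrays, and the 24 h arrays overlapped them. The change was 0.56 ± 0.30 at 24 h, which was not called, and Il1rl1 rose by 1.17 ± 0.30 at 48 h, which was called. That call was lost without a level filter, with probes averaged, and without time zero replicate 5, unconditioned 48 h replicate 3 or either conditioned 48 h array.

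The 3 Il1rl1 probes did not read alike. Probe 140050 ran from 382 to 624 at time zero and from 459 to 941 in the media, with changes of 0.14 ± 0.26 and 0.49 ± 0.26 that were not called. Probe 229002 was below the level filter, at 20.4 or less on every array. On the smaller design the same 3 kinds of reading appeared. Probe 21721 read 607 and 472 at time zero, 1073 and 672 at 24 h and 1642 and 842 at 48 h in unconditioned and conditioned medium, a difference of 1.23 at 48 h. Probe 1031 differed by 0.52 at 48 h and probe 22229 was below the filter. Il1rl1 has a membrane form and a soluble form, and which form each probe reports was not analysed here.

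Il1rap, the accessory chain shared by the IL-33 and IL-1 receptors, was read by probe 147107. It read 46.5, 27.3, 53.3 and 86.2 at time zero, 119 and 154 in unconditioned medium and 186 and 193 in conditioned medium at 24 h. After 48 h it read 97.3 and 123 in unconditioned and 192 and 139 in conditioned medium. All arrays of the media lay above time zero, and conditioned lay above unconditioned medium at both times. Il1rap rose by 1.52 ± 0.34 at 24 h and by 1.37 ± 0.34 at 48 h, both called.

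On the smaller design, Il1rap probe 10604 read 75.6 and 49.0 at time zero. It read 120 and 152 at 24 h and 195 and 147 at 48 h in unconditioned and conditioned medium, differences of 1.28 and 1.57. There conditioned lay above unconditioned medium at 24 h and below it at 48 h. The second probe of the larger design, 302080, had changes of 0.68 ± 0.85 and -0.20 ± 0.85 and a Pearson's r of 0.02 with the first over 12 arrays. Both calls of Il1rap were lost when its probes were averaged or no level filter was used. The 24 h call was also lost without replicate 3 of either medium at 24 h, and the 48 h call without unconditioned 48 h replicate 3 or conditioned 48 h replicate 2.

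Il17re, the IL-17C receptor chain, was read by probe 235040 alone and had no probe on the smaller design. At time zero it read 13.9, 15.7 and 3.78 on replicates 3 to 5, and replicates 5 and 6 were below the floor. It read 63.8 and 93.5 in unconditioned medium and 204 and 214 in conditioned medium at 24 h. After 48 h it read 141 and 239 in unconditioned and 695 and 804 in conditioned medium. The groups followed the order time zero, unconditioned 24 h, then unconditioned 48 h and conditioned 24 h, whose arrays overlapped, and conditioned 48 h. Il17re rose by 3.74 ± 0.43 at 24 h and by 5.38 ± 0.43 at 48 h, both called under every alternative that could be fitted.

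By medium and time, the Il17re change from time zero was 3.01 ± 0.52 and 4.46 ± 0.52 at 24 h and 4.43 ± 0.52 and 6.31 ± 0.52 at 48 h, in unconditioned and conditioned medium. The 4 comparisons share the time zero arrays. All 4 of those arrays lay below 16.3, the mean level under which a probe was left out, so Il17re passed the filter through the cultured groups. With a floor at 0.2 of the median (intensity 19.1), under which all 4 time zero arrays fall, the changes were 2.57 at 24 h and 4.21 at 48 h, and with a pseudocount of 0.5 of the median 1.56 and 2.90.

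Il17ra, the chain common to the IL-17 receptors, was read by probe 163015. It read 185, 143, 158 and 127 at time zero, 285 and 190 in unconditioned medium and 226 and 237 in conditioned medium at 24 h. After 48 h it read 190 and 149 in unconditioned and 320 and 329 in conditioned medium. The conditioned 48 h arrays lay above all others, while the unconditioned 48 h arrays overlapped time zero. With both media together the changes from time zero were 0.43 ± 0.25 and 0.54 ± 0.25 and were not called. In conditioned medium alone at 48 h the change was 0.93 ± 0.31 and was called. The second Il17ra probe, 150083, had changes of 0.54 and -0.60 with both media together and a Pearson's r of 0.04 with the first. In conditioned medium it read 77.1 and 92.8 at 24 h and 39.4 and 37.1 at 48 h.

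Il1r1, the signalling IL-1 receptor, read 77.7 to 152 at time zero and 99.4 to 168 in the media with probe 199002. Its changes were -0.22 ± 0.30 at 24 h and -0.09 ± 0.30 at 48 h, and all groups overlapped time zero. A second probe of Il1r1 was below the filter, and on the smaller design the only one was as well. Il18, a cytokine of the IL-1 family that needs caspase cleavage, was below the filter on both designs. It read 28.7 and 31.1 in conditioned medium at 48 h on the larger design and at most 28.0 on every other array there.

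Il1rn, the IL-1 receptor antagonist, had probe 115042 below the level filter and was read by probe 63079. At time zero it read 56.3, 532, 59.0 and 71.2. It read 68.2 and 91.5 in unconditioned medium and 50.9 and 55.9 in conditioned medium at 24 h. After 48 h it read 298 and 99.0 in unconditioned and 42.9 and 42.0 in conditioned medium. The 2 highest values lay on time zero replicate 4 and unconditioned 48 h replicate 2, both among the arrays that stood apart. The changes from time zero were -0.88 ± 0.58 and -0.39 ± 0.58, not called, and without those 3 arrays they were 0.08 ± 0.31 and 0.06 ± 0.34.

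The same 2 arrays had the highest sums of 10 leukocyte markers, 2341 and 2402, against 1138 to 1530 on the other arrays. Over groups these sums were 1317 to 2341 at time zero, 1406 to 1460 and 1269 to 1371 at 24 h, and 1398 to 2402 and 1138 to 1193 at 48 h in unconditioned and conditioned medium. Of these markers 8 were above the filter, while Ptprc was below it and Lyz2 was at the floor on 12 of 12 arrays. Cd74, the invariant chain of MHC class II, fell in conditioned against unconditioned medium by 3.79 ± 0.54 (limma, adjusted p = 0.0014). It was at the floor on 3 arrays, all in conditioned medium, so the size of this fall depends on the floor. The part of leukocyte RNA in the Il1rn values was not tested. Of 7 mast cell markers, cells known to carry ST2, 2 were above the filter, Tpsab1 was at the floor on 12 and Fcer1a on 10 of 12 arrays. The summed mast cell intensity was 553 to 678 at time zero and 439 to 703 in the media.

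Conditioned medium was compared with unconditioned medium at each time and over both times. Over both times 0 of the 7 genes were called in limma, and 2 had an unadjusted p under 0.05. At 24 h 0 were called (1 unadjusted) and at 48 h 0 (3 unadjusted). Of all 9953 genes, 1.03% were called over both times, against 0.311% in the 24 h and 0.161% in the 48 h comparison. At an unadjusted p under 0.05 these shares of all genes were 10.7%, 4.83% and 9.09%. The largest difference in the direction of conditioned medium was that of Il17re, at 1.65 ± 0.43 over both times, with 1.43 ± 0.61 at 24 h and 1.85 ± 0.61 at 48 h. Its conditioned arrays lay above the unconditioned ones at each time. Without the 3 arrays that stood apart, which leaves only replicate 3 of unconditioned medium at 48 h, the Il17re difference over both times was 1.56 ± 0.34. Il17re was called over both times without time zero replicate 4, 5 or 6, with array weights, with the higher floor, with the pseudocount and with probes averaged. As reported 218 probes were called there, against 554, 207 and 277 without those replicates in turn and 1075 with array weights. The higher floor called 229, the pseudocount 223 and averaged probes 148 of 8538.

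**Figure D3:**
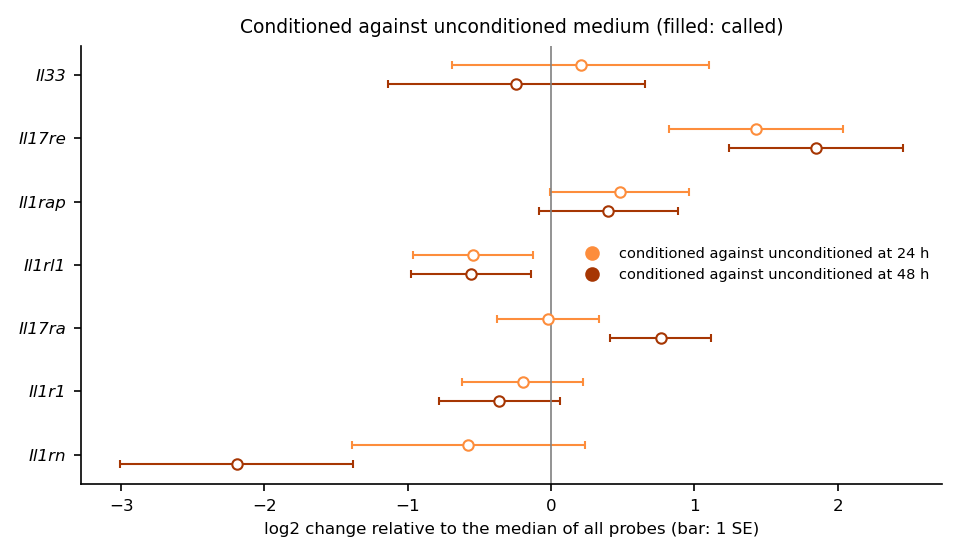
Log2 difference of conditioned against unconditioned medium for the 7 genes above the level filter, at 24 h and 48 h, relative to the median of all probes (horizontal axis, 2 arrays of each medium per time). Points are fitted differences and bars 1 SE, and no point is filled since none was called. Il17re lies right of 0 at both times, Il1rl1 and Il1rn left of it, and Il33 within 1 SE of 0.

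Il1rn lay lower in conditioned medium on every array at each time, with a difference of -1.38 ± 0.58 over both times, with -0.58 ± 0.81 at 24 h and -2.19 ± 0.81 at 48 h. Without the 3 arrays that stood apart it was -0.88 ± 0.29. It was called only with array weights. Il1rl1 differed by -0.54 ± 0.30 over both times and was called with quantile normalization and without the 3 arrays (-0.66 ± 0.17). On the smaller design, Il1rl1 probe 21721 differed by -0.49 and probe 1031 by 0.35. Il1rap differed by 0.45 ± 0.34, Il17ra by 0.38 ± 0.25, Il1r1 by -0.27 ± 0.30 and Il33 by -0.01 ± 0.63. Il33 probe 19722 of the smaller design differed by -0.0027 between the media, and Il1rap probe 10604 by 0.29. Il33 probe 4246 and Il1rap probe 12007 there were below the filter and differed by 1.32 and 1.67.

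The difference between the medium effects at 48 h and 24 h was not called for any of the 7 genes (0% of all genes were called). In limma 0 of the 7 had an unadjusted p under 0.05, as did 2.05% of all genes. It was largest for Il1rn at -1.63 ± 1.15 and for Il17ra at 0.77 ± 0.50. Between 48 h and 24 h 0 of the 7 genes were called (0.0402% of all genes), and 1, Il17re, had an unadjusted p under 0.05, as did 4.73% of all genes. The Il17re difference was 1.63 ± 0.43 (limma, adjusted p = 0.631). Without the 3 arrays that stood apart, which leaves only replicate 3 of unconditioned medium at 48 h, it was 1.72 ± 0.34.

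Of the mesothelial and epithelial markers, 3 were above the filter (Krt8, Krt19 and Wt1), and Krt8 alone was called against time zero. The summed intensity of 6 measured markers was 324 to 478 at time zero. It was 1050 to 1188 in unconditioned and 2033 to 2358 in conditioned medium at 24 h, and 872 to 1474 and 2420 to 2538 at 48 h. Like Il17re, the sum was higher in the media than at time zero and higher in conditioned than in unconditioned medium on all arrays. Unlike Il17re, its unconditioned arrays overlapped between 24 h and 48 h, and conditioned 24 h lay above unconditioned 48 h. Most of it was Krt8, a keratin of simple epithelia, at 103 to 255 at time zero and 1745 to 2147 in conditioned medium. Krt8 rose by 2.70 ± 0.29 at 24 h (adjusted p = 1.95e-05) and by 2.93 ± 0.29 at 48 h (adjusted p = 5.53e-06) in limma. The mesothelial factor Wt1 did not follow this pattern, at 121 to 264 at time zero and 146 to 272 in the media, with changes of 0.04 ± 0.29 at 24 h and -0.20 ± 0.29 at 48 h that were not called. Krt19 was at the floor on 2 arrays, and its change of 2.53 ± 0.80 at 48 h was not called (limma, adjusted p = 0.0603). Msln, Cdh1 and Epcam were below the filter. The part of such cells in the Il17re values was not tested.

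**Figure D4:**
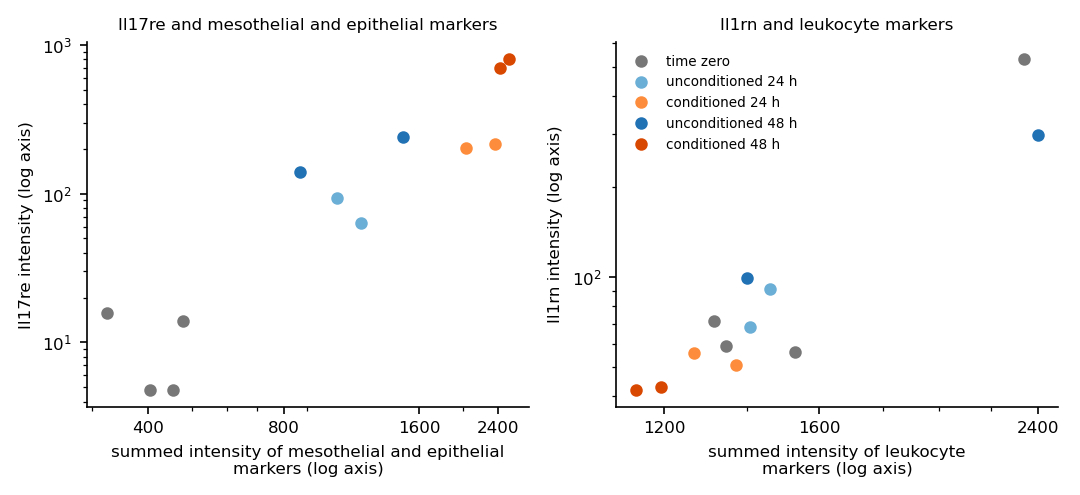
Left, Il17re intensity against the summed intensity of mesothelial and epithelial markers; right, Il1rn against leukocyte markers; each point is 1 of the 12 arrays of the larger design, coloured by group, on log axes. The conditioned 48 h arrays lie at the upper right for Il17re, and time zero replicate 4 and unconditioned 48 h replicate 2 lie apart at the upper right for Il1rn (532 and 298).

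The genes whose pattern over the 12 arrays was most like that of Il17re, among 9952 others, were Pla2r1 (Pearson's r 0.985), a phospholipase A2 receptor, Fgl2 (0.979), a fibrinogen-like protein, and Ptgs1 (0.976), the constitutive prostaglandin synthase. Il17re was used for this search because no gene of the 7 was called between the media and it ranked first among them there. Pla2r1 read 42.0 to 80.4 at time zero and 941 to 995 in conditioned medium at 48 h. Among the 7 genes themselves, Il33 and Il17re had the highest Pearson's r, 0.87, and Il1rn had values from -0.57 to 0.10 with the others. All these coefficients share arrays, groups and scaling and describe these arrays only.

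Downstream of these receptors, 18 adaptors and kinases were listed and 16 had a probe above the filter. This list and those below were chosen with earlier results of these data known, so their p-values are a description only. Myd88, the adaptor of the IL-1 and IL-33 receptors, was called higher at 24 h by 1.03 ± 0.31 (limma, adjusted p = 0.0377), with every array of the media at that time above time zero. At 48 h its change of 0.92 ± 0.31 was not called (adjusted p = 0.0584). Myd88 read 43.6 to 68.2 at time zero, 84.9 to 93.3 in unconditioned and 164 to 174 in conditioned medium at 24 h. Tab1, which activates the kinase TAK1, was called lower at 48 h, where it fell by 1.08 ± 0.29 (limma, adjusted p = 0.0473), with all 48 h arrays below time zero. The other 15 at 24 h and 15 at 48 h were not called, among them Irak1 (0.28 ± 0.25 at 24 h). The list's median change was -0.08 at 24 h and -0.05 at 48 h, against 0.07 and 0.08 over all genes. Of all 9953 genes, 4.14% and 8.33% were called in either direction.

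Of 8 genes of the inflammasome and of cytokine release, 4 were above the filter and 2 were called higher at both times. Of all 9953 genes, 3.78% were called higher at 24 h and 7.14% at 48 h. Casp8, a caspase of cell death and cytokine processing, rose by 2.25 ± 0.53 at 24 h (limma, adjusted p = 0.0147) and by 2.64 ± 0.53 at 48 h (adjusted p = 0.00356). It was below the floor on time zero replicate 4, and at most 34.0 at time zero against at least 50.0 in the media. The size of the Casp8 rise therefore depends on the floor. Its mean log2 level at time zero lay under the filter level of 16.3, so Casp8 passed the filter through the cultured groups. Gsdmd, whose cleaved product forms membrane pores, rose by 0.76 ± 0.24 at 24 h (limma, adjusted p = 0.0384) and by 1.26 ± 0.24 at 48 h (adjusted p = 0.00162). Gsdmd read 175 to 275 at time zero and 383 to 803 in the media. Pycard and Casp4 were not called, and Casp1 was below the filter.

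Other ligands and receptors of these families were mostly at low level. Of 14 further ligands and antagonists, 3 were above the filter (Il1a, Il36rn and Il18bp) and none was called in any comparison, while Il1b was below the filter. Il1a differed from time zero by -0.85 ± 0.33 at 24 h (limma, adjusted p = 0.33). Of 8 further receptors only Sigirr, an inhibitory receptor of the IL-1 family, was above the filter. It was called higher at 48 h by 2.05 ± 0.62 (limma, adjusted p = 0.0456), with all 48 h arrays (55.3 to 96.4) above time zero (2.18 to 37.7). The lowest of these, on time zero replicate 5, was below the floor of 4.78, so the size of this rise depends on the floor. The mean log2 level of Sigirr at time zero lay under the filter level of 16.3, so it passed the filter through the cultured groups.

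Of 31 NF-kB genes and targets, 23 were above the filter. At 24 h 2 were called higher and 1 lower, and at 48 h 3 higher and 1 lower. Of all 9953 genes, 4.14% and 8.33% were called in either direction. The list's median change was 0.20 and 0.14, against 0.07 and 0.08 over all genes. Nfkbiz, an IκB family protein induced by IL-1 and IL-17, rose by 2.47 ± 0.56 at 24 h (limma, adjusted p = 0.0109) and by 2.90 ± 0.56 at 48 h (adjusted p = 0.00244). It read 4.81 to 51.8 at time zero, 58.8 to 104 in unconditioned and 260 to 316 in conditioned medium. The chemokine gene Ccl20 fell by 1.73 ± 0.28 at 24 h (limma, adjusted p = 0.00332) and by 1.60 ± 0.28 at 48 h (adjusted p = 0.00199), from 646 to 1224 at time zero to 208 to 622 in the media. Ccl2 rose at both times (0.78 ± 0.24 and 0.83 ± 0.24), and Ptgs2 rose at 48 h (0.98 ± 0.27). Between the media, Cebpd (1.54 ± 0.27, limma, adjusted p = 0.00427) and Icam1 (1.27 ± 0.29, adjusted p = 0.0291) were called higher in conditioned medium over both times, and Nfkbiz was not (1.76 ± 0.56, adjusted p = 0.167).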

How the data were processed

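Total RNA of 18 samples was labelled with biotin and hybridised to 1-colour CodeLink arrays, per the labels. The deposited values are linear intensity in 2 tables (12 and 6 arrays). How the authors corrected background or normalized them is not given in the sources used here, nor is a genome build for the probes. Array medians of 70.3 to 144 and 214 to 416 differ between arrays. The members and gene lists were chosen with earlier results of these data known.

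Arrays were brought to a common median within each table, and values were floored at 0.05 of it before log2. A filter at the 30th percentile of mean level kept 23694 of 33849 and 6934 of 9906 probes. Of the larger design's probes 16753 name 1 gene, 165 several and 16931 none. On the larger table limma 3.58.1 (R 4.3.3) fitted all 5 groups at once (eBayes with intensity trend, 7 residual and 10.4 prior degrees of freedom), with Benjamini-Hochberg adjustment over all probes and a threshold of 0.05. The number of arrays limits the precision. The smaller table gave values only. All members were named, and of each pathway list every called gene and up to 3 with the smallest p were considered. Replicate numbers follow the order of deposit and pair no samples. Alternatives were quantile and 75th percentile scaling, a 50th percentile filter or none, a floor of 0.2, a pseudocount of 0.5 of the median, no trend, array weights, averaged probes, both tables together, and arrays left out. The fit was tested on simulated data. Figures used matplotlib 3.10.9 in Python 3.11.15.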

Additional observations from a re-analysis of the deposited data

Results flagged for a closer look

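Dixon's test was run on the 4 time zero arrays of the larger design for every member probe above the level filter. For 3 of these probes 1 array lay far from the others, which chance flags in about 1 of 20 groups. Il1rn probe 63079 read 532 on replicate 4, against 56.3 to 71.2 on the others. Il1rl1 probe 140050 read 624 on replicate 4, against 382 to 410. Il17ra probe 150083 read 94.2 on replicate 6, against 28.5 to 34.9.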

How the results depend on the processing

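No change of a member turned its direction among those called. The count of members called at 24 h against time zero was 3, and 1 without a level filter (8 members tested in place of 7); leaving out 1 array at a time gave 1 to 3, the lowest without unconditioned 24 h replicate 3. At 48 h against time zero it was 4, and 2 without a level filter and 2 with probes averaged (5 members tested); leaving out 1 array gave 2 to 4, the lowest without conditioned 48 h replicate 2 or unconditioned 48 h replicate 3. Between 48 h and 24 h it was 0, and 1 without the 3 arrays that stood apart. Between the media over both times it was 0, but 1 with quantile normalization, the floor at 0.2, the pseudocount or probes averaged, 2 with array weights and 2 without the 3 arrays; leaving out 1 array gave 0 to 1, the highest without time zero replicate 4, 5 or 6. Between the media at 48 h it was 0, and 1 with the pseudocount. The cause of the other moves was not tested. With quantile normalization 1819 probes were called at 24 h and 3757 at 48 h against time zero, where 743 and 1639 were called as reported, and 921 in place of 218 between the media over both times. Without the 3 arrays these counts were 1731, 3528 and 1849. No paired analysis was possible because the replicate numbers follow the order of deposit. Signal over background could not be read, since detection flags were not used here.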
